A study of Rattus norvegicus with 24 samples.

Results

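The glucocorticoid receptor, the mineralocorticoid receptor and 8 genes known to respond to glucocorticoids were followed in nucleus accumbens (NAC) and ventral tegmental area (VTA) punches of rats whose fathers had self-administered morphine or saline. The 10 genes were taken by symbol from the deposited tables of estimated counts: Nr3c1, Nr3c2, Fkbp5, Tsc22d3, Sgk1, Zbtb16, Hif3a, Pdk4, Cdkn1a and Sult1a1. They are 10 of the 37403 gene identifiers in each table, and all 10 passed the filter on low counts in both regions, where 18220 genes were tested in NAC and 19923 in VTA. The NAC is the ventral part of the striatum, and the VTA is the midbrain area whose dopamine neurons project to it.

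Offspring of morphine-exposed fathers (MOR-sired) gave 7 NAC and 5 VTA libraries, and offspring of saline-exposed fathers (SAL-sired) gave 7 NAC and 5 VTA libraries. Fathers had access to the drug or to saline for 60 days. The offspring are described as first-generation males, had reached at least postnatal day 60 and are not said to have received any drug themselves. Both sides of the brain were punched in each region, and total RNA went into a directional library kit. Every library has a title that numbers it as a biological replicate of its group. The strain, the animal and the litter of a library are not stated, so a p-value reflects only how these libraries vary. Whether any of the libraries share a litter is unknown. Whether both regions came from the same rats is unknown.

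Corticosterone, the main glucocorticoid of rats, crosses into cells and binds 2 related nuclear receptors. The mineralocorticoid receptor has the higher affinity and is largely occupied at resting hormone levels, while the glucocorticoid receptor is engaged as the hormone rises with stress or at the active phase of the day. Receptor held by heat shock proteins moves to the nucleus once bound, attaches to DNA elements made of a pair of inverted half-sites and raises or lowers transcription. Several of its targets feed back on it, and stress hormone signalling is known to modify dopamine transmission and drug taking in rodents.

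Levels are given in CPM, the estimated count per 1000000 counts of a library. The deposited counts are scaled transcript abundances, so CPM here is a level per transcript length and can be compared between genes. Library totals, in units of 1000000 counts, ran from 23.6 to 43.5 in VTA and from 21.9 to 41.3 in NAC. The 4 VTA libraries numbered 25 to 28, which held 2 libraries of each sire group, had totals of 23.6 to 27.3 in these units, below the 36.7 to 43.5 of those numbered 29 to 37. The labelled regions were separated by Th and Drd1. Th, the rate-limiting enzyme of dopamine synthesis, lay between 1293 and 2881 CPM in VTA and between 0.685 and 1.87 CPM in NAC. Drd1, the receptor of direct pathway striatal neurons, lay between 1.22 and 1.75 CPM in VTA and between 18.6 and 246 CPM in NAC. The NAC punches were mixed in makeup. In MOR-sired NAC 2, 3 and 7 the 8 striatal neuron markers summed to 450, 680 and 693 CPM. The 6 cortical glutamatergic markers summed to 3228, 3347 and 3354 CPM there. In SAL-sired NAC these sums were 1379 to 5147 CPM and 1933 to 2918 CPM. Drd2 was at 13.5, 22.2 and 13.1 CPM in those MOR-sired libraries, below the 80.2 to 189 CPM of VTA. The sex-linked transcripts went against the label in 4 VTA libraries. MOR-sired VTA libraries 3, 4 and 5, and library 5 of SAL-sired VTA, had 78.9 to 108 CPM of Xist, which is made from the silenced X chromosome of females, with the Y-linked Ddx3y at 0 to 0.072 CPM, whereas the other 20 libraries had at most 0.253 CPM of Xist and at least 28.7 CPM of Ddx3y. These 4 libraries were 3 MOR-sired and 1 SAL-sired, so leaving them out leaves 2 MOR-sired against 4 SAL-sired libraries. The main VTA results are also given without them, and the other VTA values rest on all 10 libraries.

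The promoters of these genes were read for the letters that the activated receptor binds, because the set is defined by its response to that receptor. RefSeq start sites of rat assembly GRCr8 gave 14 windows of 300 bases, from 250 bases before to 50 after a start, for 8 of the 10 genes. Nr3c2 and Zbtb16 had no window. The core of the palindromic response element, ACANNNTGT, which reads the same on both strands, was found in 1 of the 14 windows, upstream of a start of Tsc22d3, beginning at position -183. Across all 33469 rat windows 6.86% hold it. A half-site, AGAACA or its reverse complement TGTTCT, was found in 1 window, that of Sult1a1, beginning at position -89, and in 20.7% of all windows. These 2 windows are shown with the matched letters in capitals, and the single window of Fkbp5, which held neither, is shown in full lower case. A match describes letters only, and a window without one says nothing about binding there or elsewhere, since response elements of several of these genes are known to lie in introns or far upstream.
Tsc22d3, chrX:109065381-109065680, minus strand: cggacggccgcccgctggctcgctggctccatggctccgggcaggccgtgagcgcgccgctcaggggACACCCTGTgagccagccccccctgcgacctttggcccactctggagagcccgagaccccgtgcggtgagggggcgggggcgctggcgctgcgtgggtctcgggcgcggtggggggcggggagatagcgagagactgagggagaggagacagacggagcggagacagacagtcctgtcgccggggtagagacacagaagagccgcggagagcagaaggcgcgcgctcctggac
Sult1a1, chr1:190706063-190706362, minus strand: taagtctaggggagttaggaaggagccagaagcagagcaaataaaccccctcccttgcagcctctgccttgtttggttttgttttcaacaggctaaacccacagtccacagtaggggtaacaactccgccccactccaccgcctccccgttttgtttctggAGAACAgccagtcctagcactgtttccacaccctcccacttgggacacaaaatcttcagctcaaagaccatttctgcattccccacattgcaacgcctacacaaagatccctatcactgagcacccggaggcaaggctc
Fkbp5, chr20:6543506-6543805, minus strand: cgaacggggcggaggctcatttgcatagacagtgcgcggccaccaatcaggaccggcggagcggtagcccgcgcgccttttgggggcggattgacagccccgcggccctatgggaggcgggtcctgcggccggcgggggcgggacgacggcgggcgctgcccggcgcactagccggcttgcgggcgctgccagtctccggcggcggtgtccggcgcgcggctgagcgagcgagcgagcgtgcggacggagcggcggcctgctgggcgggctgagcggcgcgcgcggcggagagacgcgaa

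The order of the 10 genes by mean level was led by Tsc22d3 and Sgk1 in both regions and closed by Hif3a. In VTA, Tsc22d3 averaged 121 ± 19.5 CPM and Sgk1 88.9 ± 34.5 CPM, followed by Nr3c1 at 25.0, Zbtb16 at 24.4, Fkbp5 at 22.2, Sult1a1 at 21.2 and Pdk4 at 20.8 CPM, then Cdkn1a at 13.1, Nr3c2 at 8.79 and Hif3a at 4.55 CPM (SD, n = 10). In NAC, Tsc22d3 averaged 71.7 ± 4.54 CPM and Sgk1 66.3 ± 29.9 CPM, followed by Fkbp5 at 43.1, Nr3c1 at 29.5, Zbtb16 at 22.3, Nr3c2 at 18.3, Sult1a1 at 11.3, Cdkn1a at 8.42, Pdk4 at 7.81 and Hif3a at 3.23 CPM (n = 14). Most neighbours in these orders overlapped. The ranges of neighbouring genes were separate only between Sgk1 and Nr3c1 in VTA, and between Nr3c2 and Sult1a1 and between Pdk4 and Hif3a in NAC.

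**Figure D1:**
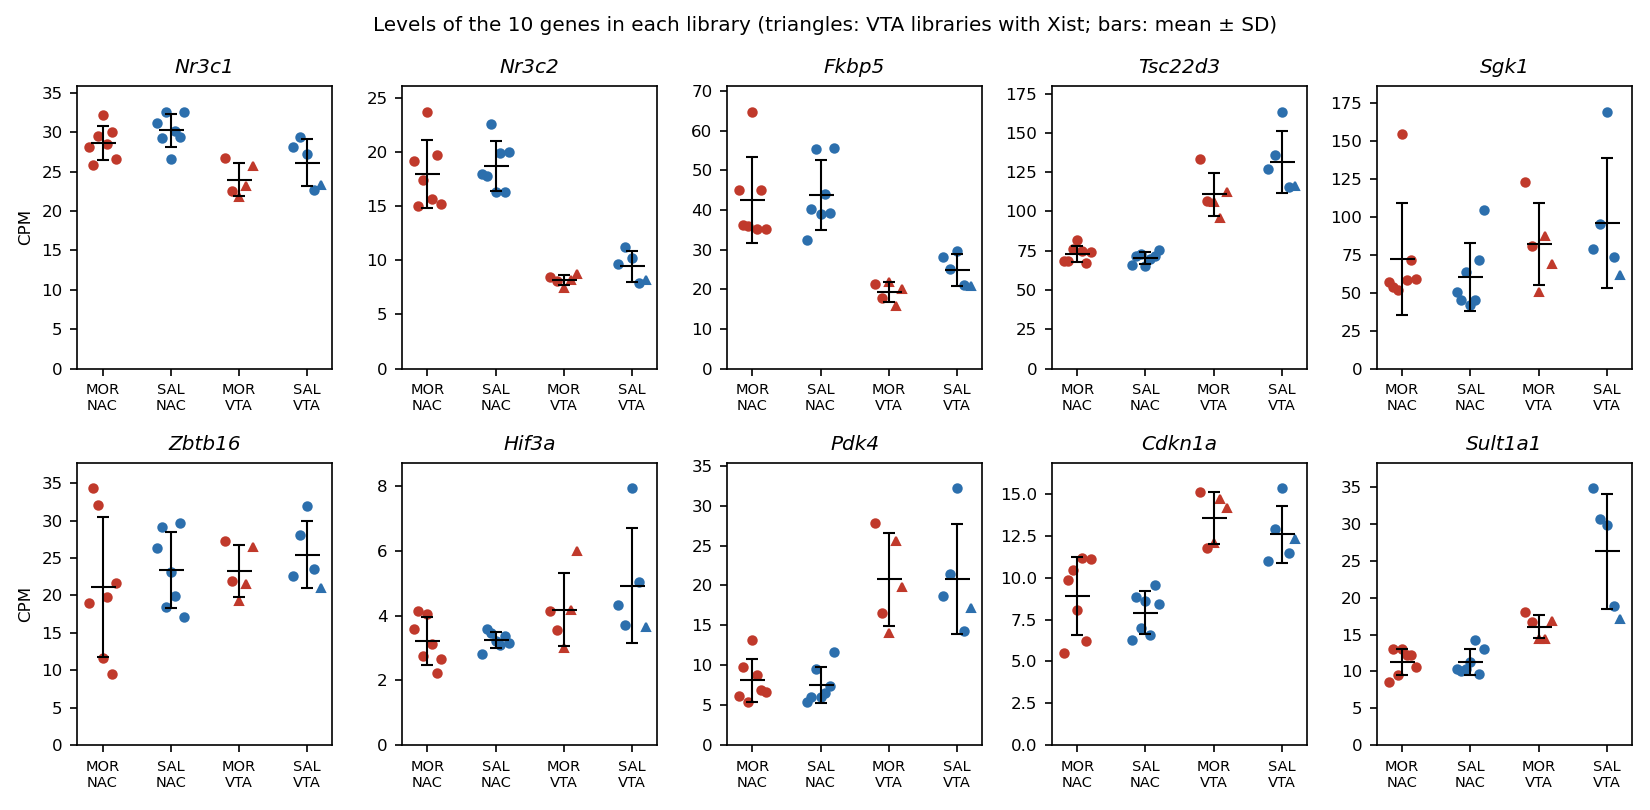
Level of each of the 10 genes in every library, in CPM on a linear axis from 0, with one panel per gene and one column per region and sire group (MOR-sired red, SAL-sired blue, triangles for the VTA libraries with Xist, bars for mean ± SD). Nr3c2 and Fkbp5 sit lower in every VTA library than in any NAC library, Tsc22d3, Pdk4 and Sult1a1 sit higher, and Fkbp5 and Sgk1 each have one MOR-sired NAC library far above the other 6.

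The receptors stood apart from each other by region. Nr3c1, the glucocorticoid receptor, had similar levels in both, 21.8 to 29.4 CPM in VTA and 25.8 to 32.6 CPM in NAC, and varied little, with the highest library 1.26 times the lowest in NAC. Nr3c2, the mineralocorticoid receptor, had a mean of 8.79 ± 1.20 CPM in VTA (n = 10) and 18.3 ± 2.68 CPM in NAC (n = 14), a ratio of 0.480, and its 7.41 to 11.3 CPM in VTA did not reach the 14.97 to 23.7 CPM of NAC. Fkbp5, which encodes the co-chaperone FKBP51 that lowers the hormone affinity of the receptor and is itself induced by it, showed the same order, with 15.9 to 29.6 CPM in VTA and 32.4 to 64.8 CPM in NAC, a ratio of means of 0.514. Tsc22d3, which encodes the anti-inflammatory leucine zipper protein GILZ, went the other way, at 95.8 to 163 CPM in VTA and 65.5 to 81.7 CPM in NAC, a ratio of 1.69.

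Pdk4, the kinase that shuts down pyruvate dehydrogenase and so spares glucose, had the largest ratio of the 10, with 20.8 ± 6.02 CPM in VTA and 7.81 ± 2.42 CPM in NAC, a ratio of 2.66 with no overlap. Sult1a1, a sulfotransferase of phenols, had 14.4 to 34.9 CPM in VTA and 8.52 to 14.2 CPM in NAC, and this narrow gap closed when both regions were scaled together by TMM. Cdkn1a, which encodes the cell cycle inhibitor p21, had a mean of 13.1 ± 1.61 CPM in VTA and 8.42 ± 1.88 CPM in NAC, with ranges that met at 11.0 to 11.2 CPM. Sgk1, Zbtb16 and Hif3a overlapped widely. In all, 5 of the 10 genes had VTA and NAC libraries that did not overlap, 3 higher and 2 lower in VTA, beside 25.4% of 20446 genes, made up of 12.6% higher and 12.8% lower in VTA. The count was 5, beside 27.7% of all genes, without the 4 libraries with Xist. It was 4, beside 27.9%, with TMM factors over all 24 libraries. Without library numbers 25 to 28, Cdkn1a was added to the 5, beside 30.4% of all genes. The regions were deposited as separate tables, so no test was made and region cannot be told apart from table. Cell makeup also differed: the 8 oligodendrocyte markers summed to 24937 to 36268 CPM in VTA and 8697 to 12456 CPM in NAC, and the 8 astrocyte markers to 3915 to 5348 CPM in VTA and 2647 to 3097 CPM in NAC. The 6 cortical glutamatergic markers summed to 277 to 616 CPM in VTA and 1420 to 3354 CPM in NAC. In NAC the 8 striatal neuron markers ran from 450 to 7009 CPM in sum. The part of any of these in the levels was not tested. In such tissue fewer cells of a type cannot be told apart from less RNA per cell.

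The first comparison asked whether the sire's morphine exposure moved these transcripts in the NAC of offspring. None of the 10 genes was called between MOR-sired and SAL-sired NAC by edgeR's quasi-likelihood test, with Benjamini-Hochberg adjusted p from 0.870 to 1.00, and none reached an unadjusted p under 0.05. The background was likewise 0% of 18220 genes called, with 6.18% at an unadjusted p under 0.05, made up of 4.39% higher and 1.79% lower in MOR-sired NAC. The sire groups overlapped in CPM for all 10 genes, and for all but 0.0823% of the genes tested. DESeq2 called 73 genes and voom in limma, which weighted libraries by quality, called 52, and neither called any of the 10.

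Nr3c1 had 25.8, 28.5 and 32.1 CPM as lowest, median and highest of the MOR-sired NAC libraries and 26.6, 30.2 and 32.6 CPM in SAL-sired NAC. The groups overlapped almost fully, with a log2 fold change of -0.09 (SE 0.05, adjusted p = 0.870). Nr3c2 had 14.97, 17.4 and 23.7 CPM in MOR-sired NAC and 16.3, 18.0 and 22.6 CPM in SAL-sired NAC. Fkbp5 had 35.1, 36.1 and 64.8 CPM in MOR-sired NAC and 32.4, 40.4 and 55.7 CPM in SAL-sired NAC. In both genes the highest library was MOR-sired NAC 4, and the log2 fold changes were -0.07 (SE 0.11) for Nr3c2 and -0.06 (SE 0.15) for Fkbp5. Tsc22d3 was the steadiest of the 10, with 67.2, 74.3 and 81.7 CPM in MOR-sired NAC and 65.5, 71.3 and 75.6 CPM in SAL-sired NAC. Its fold of 1.03 had a 95% interval of 0.955 to 1.11.

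Sgk1, the serum- and glucocorticoid-regulated kinase, which acts on ion channels and transporters, had 51.7, 58.3 and 154 CPM in MOR-sired NAC and 42.1, 50.5 and 105 CPM in SAL-sired NAC. One library in each group stood well above the rest, MOR-sired NAC 4 and SAL-sired NAC 7, and the log2 fold change of 0.24 (SE 0.27) was -0.05 without MOR-sired NAC 4. Zbtb16, which encodes the zinc finger repressor PLZF, spread most widely in MOR-sired NAC, at 9.45, 19.8 and 34.3 CPM, against 17.2, 23.2 and 29.7 CPM in SAL-sired NAC. The log2 fold change of Zbtb16 was -0.16 (SE 0.26), with an interval of the fold from 0.609 to 1.32. The other 4 genes had log2 fold changes between -0.03 and 0.16. Hif3a, a hypoxia-inducible factor subunit that restrains its relatives, averaged 3.21 ± 0.701 CPM in MOR-sired and 3.28 ± 0.255 CPM in SAL-sired NAC, and Pdk4 averaged 8.05 ± 2.59 CPM in MOR-sired and 7.56 ± 2.26 CPM in SAL-sired NAC. Cdkn1a averaged 8.91 ± 2.40 CPM in MOR-sired and 7.97 ± 1.27 CPM in SAL-sired NAC, and Sult1a1 11.3 ± 1.63 CPM in MOR-sired and 11.3 ± 1.76 CPM in SAL-sired NAC (TMM-scaled, SD, n = 7 each). Over the 10 genes the median log2 fold change was -0.02 and 6 were lower in MOR-sired NAC, beside a median of 0.00 and 50.5% lower over all genes tested.

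The same comparison in VTA gave 0 of the 10 genes and 0% of 19923 genes at an adjusted p under 0.05 by edgeR, while DESeq2 called 115 genes, none of them among the 10, and limma-voom called 0. At an unadjusted p under 0.05 there were 2 of the 10, Sult1a1 and Fkbp5, both lower in MOR-sired VTA, where 5.31% of all genes passed, 2.75% higher and 2.56% lower. Neither survived adjustment. The sire groups overlapped in CPM for all 10 genes, whereas 1.23% of all genes had groups that did not.

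Sult1a1 had 18.0, 16.7, 14.4, 14.4 and 16.8 CPM in MOR-sired VTA 1 to 5 and 34.9, 30.7, 29.9, 18.9 and 17.1 CPM in SAL-sired VTA 1 to 5. Of the 5 SAL-sired libraries, 3 were far above every MOR-sired one, 1 was just above, and SAL-sired VTA 5 lay within the MOR-sired range, so the groups overlapped. The TMM-scaled means were 16.6 ± 2.17 CPM in MOR-sired and 25.5 ± 7.46 CPM in SAL-sired VTA (SD, n = 5 each), a log2 fold change of -0.62 (SE 0.19, fold 0.653 with a 95% interval of 0.486 to 0.876, adjusted p = 0.804 by edgeR). Without the 4 libraries with Xist, the 2 MOR-sired libraries lay below the 4 SAL-sired ones and the log2 fold change was -0.55 (adjusted p = 0.779), with an unadjusted p above 0.05. Over all alternatives it ran from -0.73 to -0.41, with adjusted p from 0.205 to 1.00.

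Markers of several cell types moved with this gene. The 6 fibroblast markers, collagens among them, summed to 24.2 to 37.2 CPM in MOR-sired VTA and 31.6 to 167 CPM in SAL-sired VTA, highest in SAL-sired VTA 1 and 2, which were also the highest for Sult1a1. All 6 were detected and all 6 had negative log2 fold changes, 4 of them at an unadjusted p under 0.05. Across the 10 VTA libraries Sult1a1 and the mean log2 level of these markers had r = 0.81 (permutation p = 0.00319, adjusted p = 0.102) and rho = 0.84 (p = 0.00378, adjusted p = 0.141). This value rests on SAL-sired VTA 1 and 2, since r was 0.42 without them, and it was 0.76 without the 4 libraries with Xist. SAL-sired VTA 3, at 29.9 CPM of Sult1a1, had 36.3 CPM of fibroblast markers, inside the MOR-sired range. The 4 Schwann cell markers were likewise highest in SAL-sired VTA 1 and 2, at 267 and 151 CPM, above each of the other 8 VTA libraries, and had r = 0.81 (adjusted p = 0.102) and rho = 0.52 with Sult1a1. The fibroblast markers had, without the 4 libraries with Xist, a median log2 fold change of -1.21, with 0 of 6 at an unadjusted p under 0.05. The 3 serotonin neuron markers went the other way, and their sums did not overlap between the groups. They summed to 99.7 to 263 CPM in MOR-sired VTA and 0.842 to 93.8 CPM in SAL-sired VTA. All 3 were higher at an unadjusted p under 0.05. Without the 4 libraries with Xist all 3 were still higher, with a median log2 fold change of 3.22, but only 1 at that level. The part of these markers in the difference was not tested.

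Fkbp5 had 21.2, 17.8, 21.9, 15.9 and 20.2 CPM in MOR-sired VTA 1 to 5 and 28.1, 25.1, 29.6, 21.1 and 20.8 CPM in SAL-sired VTA 1 to 5. The 3 highest libraries were SAL-sired VTA 1, 2 and 3, and the other 2 SAL-sired libraries lay among the MOR-sired ones. The log2 fold change was -0.27 (SE 0.11, fold 0.827 with a 95% interval of 0.698 to 0.979, adjusted p = 0.928 by edgeR). Without the 4 libraries with Xist it was -0.25 (adjusted p = 0.815), also with an unadjusted p above 0.05. Across the 10 VTA libraries Fkbp5 had r = -0.63 with the serotonin neuron score, 0.57 with the fibroblast score and 0.58 with the Schwann cell score. None of these passed adjustment (adjusted p from 0.220 to 0.282). Larger or similar were r of 0.69 with the oligodendrocyte precursor, 0.63 with the endothelial and 0.60 with the choroid plexus score. For each of these scores 11.0% to 17.7% of other genes had at least as large an absolute r. Their part in the Fkbp5 values was not tested.

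**Figure D2:**
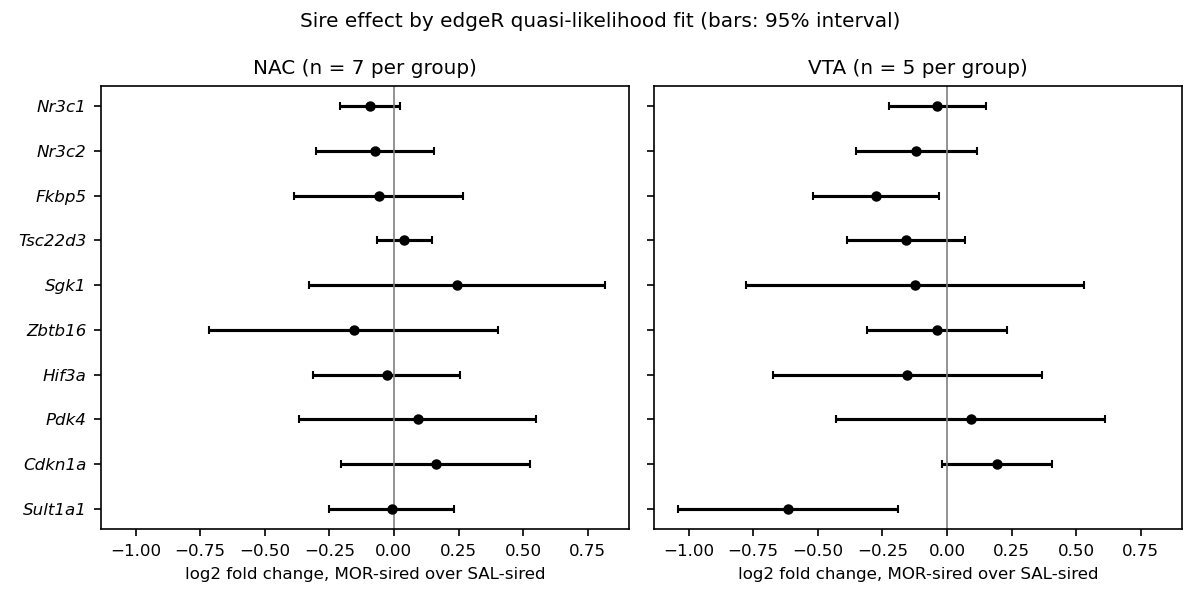
Log2 fold change of MOR-sired over SAL-sired libraries for each of the 10 genes, NAC on the left (n = 7 per group) and VTA on the right (n = 5 per group), as points with 95% intervals from the edgeR fit. The intervals cross 0 for all 10 genes in NAC and for 8 in VTA, and those of Fkbp5 and Sult1a1 in VTA lie below 0 before adjustment over all genes.

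The receptors had smaller log2 fold changes in VTA. Nr3c1 had 26.7, 22.5, 21.8, 23.2 and 25.6 CPM in MOR-sired VTA 1 to 5 and 28.2, 29.4, 27.2, 22.7 and 23.3 CPM in SAL-sired VTA 1 to 5. Nr3c2 had 8.41, 8.03, 7.41, 8.19 and 8.69 CPM in MOR-sired VTA 1 to 5 and 9.64, 11.3, 10.2, 7.91 and 8.15 CPM in SAL-sired VTA 1 to 5. For both receptors SAL-sired VTA 1 to 3 were the highest on this scale, and both groups overlapped. After TMM scaling the log2 fold changes were -0.04 (SE 0.08) for Nr3c1 and -0.12 (SE 0.11) for Nr3c2, both within the spread of the libraries. Tsc22d3 had 133, 107, 106, 95.8 and 112 CPM in MOR-sired VTA 1 to 5 and 127, 136, 163, 115 and 116 CPM in SAL-sired VTA 1 to 5. MOR-sired VTA 1 lay among the SAL-sired libraries, and the log2 fold change was -0.16 (SE 0.10, adjusted p = 0.963), and -0.02 without the 4 libraries with Xist.

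Sgk1 ranged from 50.3 to 123 CPM in MOR-sired and from 61.8 to 169 CPM in SAL-sired VTA, and the wide spread left a fold of 0.918 whose 95% interval ran from 0.583 to 1.44. Zbtb16 lay between 19.2 and 27.3 CPM in MOR-sired and between 21.0 and 31.9 CPM in SAL-sired VTA, and Hif3a between 3.00 and 5.99 CPM in MOR-sired and between 3.64 and 7.94 CPM in SAL-sired VTA. Pdk4 averaged 21.4 ± 5.83 CPM in MOR-sired and 20.1 ± 6.29 CPM in SAL-sired VTA (TMM-scaled). SAL-sired VTA 3 was the highest of the 10 libraries for Fkbp5, Tsc22d3, Sgk1, Zbtb16, Hif3a, Pdk4 and Cdkn1a. Cdkn1a was the member with the largest positive log2 fold change, 0.19 (SE 0.10, adjusted p = 0.953), with 14.0 ± 1.39 CPM in MOR-sired and 12.2 ± 1.46 CPM in SAL-sired VTA, and it was 0.24 without the 4 libraries with Xist. The median log2 fold change of the 10 genes was -0.12 and 8 were lower in MOR-sired VTA, beside a median of -0.01 and 52.6% lower over all genes. That median was 0.01 without the 4 libraries with Xist, and 0.01 without SAL-sired VTA 3 alone.

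Whether the sire difference itself differed between regions was tested over all 24 libraries. No gene was called by edgeR among 20603 tested, of which 4.78% passed at an unadjusted p under 0.05. DESeq2 called 182 genes, none of the 10. Sult1a1 was the member past that level, with a difference of log2 fold changes, VTA minus NAC, of -0.59 (SE 0.21, adjusted p = 0.928), and -0.53 (adjusted p = 0.787) without the 4 libraries with Xist. The other 9 genes had differences from -0.35 for Sgk1 to 0.13 for Zbtb16, all with an adjusted p of 1.00.

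The rest of the receptor pathway was read from lists of its other genes. Of 14 chaperones that hold or release the receptor, none was called in either region, and none reached an unadjusted p under 0.05. By direction 6 were higher and 8 lower in MOR-sired VTA, and 4 higher and 10 lower in MOR-sired NAC. Without the 4 libraries with Xist 9 were higher and 5 lower in VTA, and no gene of this or the other 4 pathway lists was called there. Fkbp4, the partner of Fkbp5 that favours transport of bound receptor, had 155 ± 8.90 CPM in MOR-sired and 154 ± 9.89 CPM in SAL-sired VTA (n = 5 each), and 151 ± 13.9 CPM in MOR-sired and 152 ± 5.85 CPM in SAL-sired NAC (n = 7 each). The chaperones of smallest p were Bag1 (log2 fold change -0.09) and Hspa4 (-0.10) in VTA, and Ppid (0.12) and Cdc37 (-0.07) in NAC. Likewise 0 of 13 coregulators passed at either level, with 6 higher and 7 lower in MOR-sired VTA, and 2 higher and 11 lower in MOR-sired NAC. In VTA 1 was higher and 12 lower without the 4 libraries with Xist, 1 of the 12 at an unadjusted p under 0.05. Those of smallest p were the histone acetyltransferase Crebbp (-0.18) and the deacetylase Hdac2 (-0.08) in VTA, and the corepressor Ncor1 (-0.10) and the coactivator Ncoa1 (-0.11) in NAC.

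Of 9 genes that make, break down or move steroids, 7 were tested in VTA, 4 higher and 3 lower in MOR-sired libraries, and 8 in NAC, 1 higher and 7 lower, and none was called. Hsd11b1, which regenerates active glucocorticoid inside cells, had 30.1 ± 6.38 CPM in MOR-sired and 33.0 ± 9.13 CPM in SAL-sired VTA, and 33.2 ± 4.22 CPM in MOR-sired and 32.5 ± 5.23 CPM in SAL-sired NAC. Srd5a1, a steroid reductase, was the one gene of this list at an unadjusted p under 0.05, with 51.5 ± 4.50 CPM in MOR-sired and 44.6 ± 2.42 CPM in SAL-sired VTA, a log2 fold change of 0.21 (adjusted p = 0.804), and 0.30 (adjusted p = 0.658) without the 4 libraries with Xist. The other gene of small p in VTA was Akr1c14 (-0.72), and in NAC they were the drug transporter Abcb1a (-0.12) and Akr1c14 (-0.31). Of 14 genes of the corticotropin-releasing hormone and vasopressin systems, 11 were tested in VTA, 7 higher and 4 lower, and 10 in NAC, 6 higher and 4 lower, with none called. Avpr1a, a vasopressin receptor, had 5.16 ± 0.257 CPM in MOR-sired and 3.92 ± 0.624 CPM in SAL-sired VTA (log2 fold change 0.40, adjusted p = 0.801), and its ligand Avp 1.74 ± 0.224 CPM in MOR-sired and 1.08 ± 0.416 CPM in SAL-sired VTA (log2 fold change 0.67, adjusted p = 0.873). These 2 were the genes of the list that were higher at an unadjusted p under 0.05, and Crhr2 (-0.87), a receptor of urocortins named after its value was seen, was the 1 that was lower. Without the 4 libraries with Xist the log2 fold changes were 0.36 for Avpr1a and 0.64 for Avp, no longer at that level. That of Crhr2 was -1.32, and Crhr2 was 1 of 2 genes of the list lower at that level. The other, Oxt (-7.20), was likewise named after its value was seen. In NAC the smallest p of this list were those of Pomc (0.16) and Ucn (0.63), and none passed.

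Among 35 other glucocorticoid response genes tested in each region, none was called in either, with 15 higher and 20 lower in MOR-sired VTA, and 16 higher and 19 lower in MOR-sired NAC. At an unadjusted p under 0.05 there was 1 lower in MOR-sired VTA, Cavin2 (-0.25), and 2 lower in MOR-sired NAC, Mertk (-0.27) and Nedd9 (-0.28). Without the 4 libraries with Xist that of Cavin2 was -0.17, no longer at that level. Other genes of the list were at that level there, 2 higher and 1 lower, beside 1323 of 20118 genes tested. With all libraries, adjusted p were 0.928 for Cavin2, 0.712 for Mertk and 0.777 for Nedd9. The second gene of the list in VTA was Lyve1 (-0.81). Per1, a clock gene that glucocorticoids induce, had 24.6 ± 0.531 CPM in MOR-sired and 24.8 ± 1.71 CPM in SAL-sired VTA, and 59.5 ± 7.75 CPM in MOR-sired and 53.0 ± 7.79 CPM in SAL-sired NAC. Klf9, a Krüppel-like repressor, had log2 fold changes of -0.14 in VTA and -0.09 in NAC, and Ddit4, an inhibitor of mTORC1, -0.05 in VTA and 0.06 in NAC.

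Correlation among the 10 genes was computed on log2(CPM + 1) across libraries, within each region, over 45 pairs with p from 100000 permutations. In VTA 2 pairs passed an adjusted p of 0.05 by both Pearson's r and Spearman's rho, and in NAC 3 did. The share of all gene pairs that pass the same rule is not given, so the counts are not a trait of these genes. The receptors were the one pair that passed in both. Nr3c1 and Nr3c2 had r = 0.91 (permutation p = 6.0e-05, adjusted p = 0.0027) and rho = 0.95 (p = 0.00018, adjusted p = 0.0081) in VTA. In NAC the receptors had r = 0.83 (permutation p = 0.00039, adjusted p = 0.00877) and rho = 0.85 (p = 0.00024, adjusted p = 0.0108). Without the 2 libraries farthest from the median of Nr3c1, r was 0.85 in VTA and 0.80 in NAC, and within sire groups in NAC it was 0.88 for MOR-sired and 0.80 for SAL-sired libraries. In VTA r was 0.88 without the 4 libraries with Xist and 0.96 in library numbers 29 to 37. The pair passed by both measures in 10 of 10 fits in VTA and 14 of 14 in NAC as each library was left out. It did not pass in VTA with TMM scaling (r = 0.89), without the 4 libraries with Xist or without library numbers 25 to 28, nor in NAC after removal of the striatal score (r = 0.56).

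The second pair in VTA was Tsc22d3 and Sult1a1, with r = 0.77 (permutation p = 0.00719, adjusted p = 0.0324) and rho = 0.87 (p = 0.00205, adjusted p = 0.0461). It had r = 0.72 without the 2 farthest libraries, 0.61 without the 4 libraries with Xist and 0.98 in library numbers 29 to 37, and it passed by both measures in 2 of 10 fits as each library was left out. In NAC, Nr3c2 and Fkbp5 had r = 0.87 (permutation p = 6.0e-05, adjusted p = 0.0027) and rho = 0.80 (p = 0.00102, adjusted p = 0.0229), with 0.95 in MOR-sired and 0.76 in SAL-sired libraries and 0.74 without the 2 farthest, and it passed in 10 of 14 fits. Sgk1 and Pdk4 had r = 0.80 (permutation p = 0.0006, adjusted p = 0.009) and rho = 0.75 (p = 0.00316, adjusted p = 0.0474) in NAC. That last value rests on MOR-sired NAC 4 and SAL-sired NAC 7, since r was 0.44 without them, and it passed in 5 of 14 fits. In VTA the same pair had r = 0.88 and rho = 0.83, where rho missed the threshold (adjusted p = 0.0536). Other genes ran closer by rho, among 11738 ranked in VTA and 11621 in NAC. For Nr3c2, Nr3c1 was at rank 12 in VTA and 691 in NAC, and for Nr3c1, Nr3c2 was at rank 55 in VTA and 31 in NAC. Fkbp5 was at rank 1124 for Nr3c2 in NAC, and Pdk4 at rank 166 for Sgk1 in NAC.

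**Figure D3:**
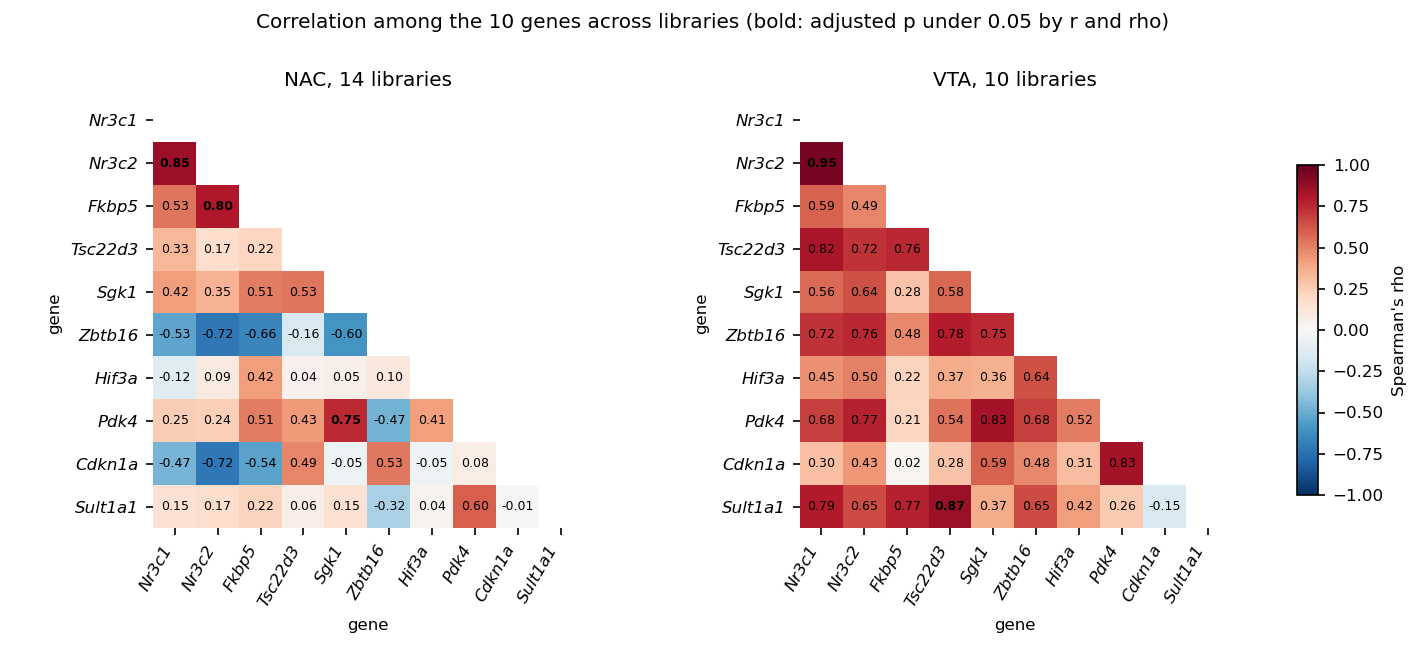
Spearman's rho of log2(CPM + 1) for the 45 pairs of genes across 14 NAC libraries (left) and 10 VTA libraries (right), from blue at -1 to red at 1, with bold for pairs that passed an adjusted p of 0.05 by both r and rho. In VTA 43 of 45 pairs have a positive r and in NAC 33, where the negative cells gather in the rows and columns of Zbtb16 and Cdkn1a.

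The pairs among the well-known responders Fkbp5, Tsc22d3, Sgk1 and Zbtb16 were positive in VTA and mixed in sign in NAC. In VTA their 6 pairs were all positive, with r of 0.85 for Fkbp5 and Tsc22d3, 0.84 for Sgk1 and Zbtb16, 0.82 for Tsc22d3 and Zbtb16, 0.75 for Tsc22d3 and Sgk1, 0.52 for Fkbp5 and Zbtb16 and 0.40 for Fkbp5 and Sgk1. By r alone 4 of the 6 passed, with adjusted p of 0.0121 for Fkbp5 and Tsc22d3, 0.0121 for Sgk1 and Zbtb16, 0.0174 for Tsc22d3 and Zbtb16 and 0.0450 for Tsc22d3 and Sgk1, while by rho their adjusted p lay between 0.0616 and 0.172. In NAC the pairs without Zbtb16 were positive, with r of 0.74 for Fkbp5 and Sgk1 (adjusted p = 0.0361, rho = 0.51), 0.69 for Tsc22d3 and Sgk1 and 0.48 for Fkbp5 and Tsc22d3. These 3 values were 0.26, 0.32 and -0.04 without the 2 libraries farthest from the median, of which MOR-sired NAC 4 was one each time. Zbtb16 ran against the others in NAC, with r of -0.66 with Fkbp5, -0.60 with Sgk1 and -0.20 with Tsc22d3. The sign of the pair of Fkbp5 and Zbtb16 thus differed between regions, a difference that was not tested.

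The scale of the counts bears on how many pairs are positive in VTA. Over 75761895 pairs of genes in VTA with a mean of at least 5 CPM, the median r was 0.34 and 79.9% were positive on plain CPM. After TMM scaling, whose factors ran from 0.848 to 1.06, these were 0.00 and 50.3%. Hif3a, at a mean of 4.55 CPM in VTA and 3.23 CPM in NAC, lay below that limit but stays among the 45 pairs. For the 45 pairs among the 10 genes the median r was 0.60 on plain CPM and 0.54 after TMM scaling, with 43 positive both times. No pair then passed by both measures in VTA, where the receptors had r = 0.89. In NAC, where the factors ran from 0.974 to 1.02, the median r of the 45 pairs was 0.26 on both scales, beside 0.01 on plain CPM and 0.00 after TMM scaling over 73489626 pairs, and 3 pairs passed on either scale.

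Several of the 10 genes followed the cell makeup of the NAC punches. The 8 striatal neuron markers summed to 450 to 7009 CPM in MOR-sired and 1379 to 5147 CPM in SAL-sired NAC, and the 6 cortical glutamatergic markers to 1420 to 3354 CPM in MOR-sired and 1933 to 2918 CPM in SAL-sired NAC. All 8 striatal and all 6 cortical markers were detected in each group. Of 170 relations between a gene and a marker list, 19 passed by both r and rho in NAC and 0 did in VTA. The regions had 14 and 10 libraries, so the same r passes less easily in VTA and the counts cannot be compared. How many relations of other genes pass the same rule is not given. Many other genes varied with the same scores, so their share is given beside most relations described. Nr3c2 rose with the striatal score, the mean log2 level of the 8 markers, at r = 0.87 (permutation p = 0.00013, adjusted p = 0.00397) and rho = 0.88 (p = 0.00012, adjusted p = 0.0051), and fell with the cortical score at r = -0.84. Fkbp5 rose with the striatal score at r = 0.83 (permutation p = 0.00028, adjusted p = 0.00529) and rho = 0.89 (p = 4.0e-05, adjusted p = 0.00283), with 0.84 in MOR-sired and 0.97 in SAL-sired libraries. Zbtb16 went the other way, at r = -0.76 (permutation p = 0.00151, adjusted p = 0.0183) and rho = -0.81 (p = 0.00091, adjusted p = 0.0129). Without the 2 libraries farthest from the median these 3 relations had r of 0.82 for Nr3c2, 0.85 for Fkbp5 and -0.64 for Zbtb16. Of 12107 other genes, 7.24% had at least as large an absolute r with the striatal score as Nr3c2, 11.9% as Fkbp5 and 21.1% as Zbtb16, so such relations were common in NAC and not particular to these genes.

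**Figure D4:**
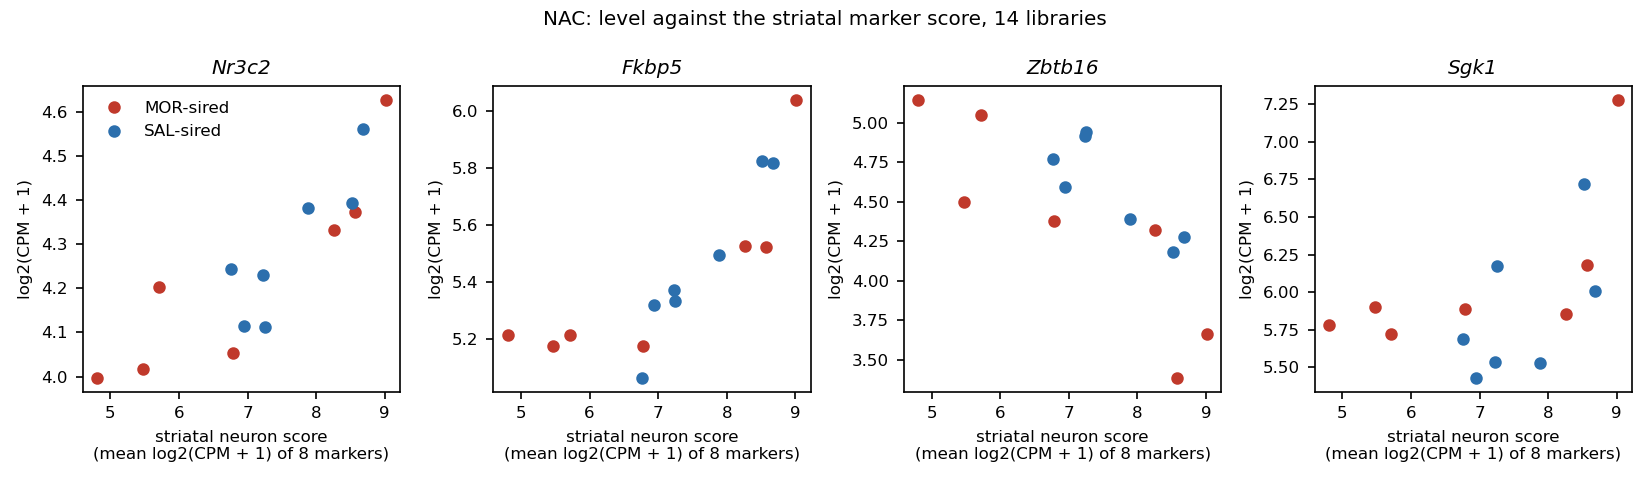
Level of Nr3c2, Fkbp5, Zbtb16 and Sgk1 on the log2(CPM + 1) scale in each of 14 NAC libraries (MOR-sired red, SAL-sired blue) against the mean log2(CPM + 1) of 8 striatal neuron markers. Nr3c2 and Fkbp5 climb with the score (r = 0.87 and 0.83), Zbtb16 declines (r = -0.76), and the single high Sgk1 value of 154 CPM belongs to the library with the highest score.

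With the striatal score in the fit, the log2 fold change of Zbtb16 in NAC was -0.48 (adjusted p = 0.170), against -0.16 without it. Those of Nr3c2 and Fkbp5 were 0.01 and 0.07, against -0.07 and -0.06 without it, all within their standard errors. After the score was removed from all 10 genes, no pair passed by both r and rho. The pair of Nr3c2 and Fkbp5 then had r = 0.56, the receptors 0.56, and Fkbp5 and Zbtb16 -0.10. Sgk1 and Pdk4 kept r = 0.77. These 2 genes fell instead with Slc17a6, the vesicular glutamate transporter of subcortical neurons, which had only 1.59 to 12.9 CPM in NAC. Pdk4 had r = -0.88 and rho = -0.93 with it (permutation p = 1e-05 for each, the smallest the permutations could give, adjusted p = 0.0017 for each), and Sgk1 r = -0.86 (adjusted p = 0.0068) and rho = -0.74 (adjusted p = 0.037). Of 12114 other genes, 0.660% had at least as large an absolute r with Slc17a6 as Pdk4 and 1.35% as Sgk1. MOR-sired NAC 4 had the lowest Slc17a6 of the NAC libraries, 1.59 CPM, and the highest Sgk1 and Pdk4, 154 and 13.2 CPM. How far both relations rest on that library is not given here. Cdkn1a fell with the 3 GABA neuron markers, at r = -0.76 (adjusted p = 0.0231) and rho = -0.81 (adjusted p = 0.0129), which 21.1% of other genes matched in absolute r.

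In VTA the relation of largest absolute r was that of Nr3c1 with 7 endothelial markers, at r = 0.92 (permutation p = 0.00111, adjusted p = 0.102) and rho = 0.82 (p = 0.00573, adjusted p = 0.141), which did not pass, and 0.187% of other genes had at least as large an absolute r. It had r = 0.90 without the 2 farthest libraries, 0.95 without the 4 libraries with Xist and 0.87 in library numbers 29 to 37. The endothelial markers summed to 225 to 314 CPM in MOR-sired and 236 to 307 CPM in SAL-sired VTA. Nr3c1 also had r of 0.86 with the oligodendrocyte precursor, 0.85 with the mural and 0.77 with the astrocyte score. It had 0.75 with the Schwann cell and 0.71 with the oligodendrocyte score, so endothelial markers were not particular. With the dopamine, serotonin and GABA neuron scores r was -0.16, -0.14 and -0.17. These values are on plain CPM, where 79.9% of pairs of genes with a mean of at least 5 CPM in VTA were positive.

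**Figure D5:**
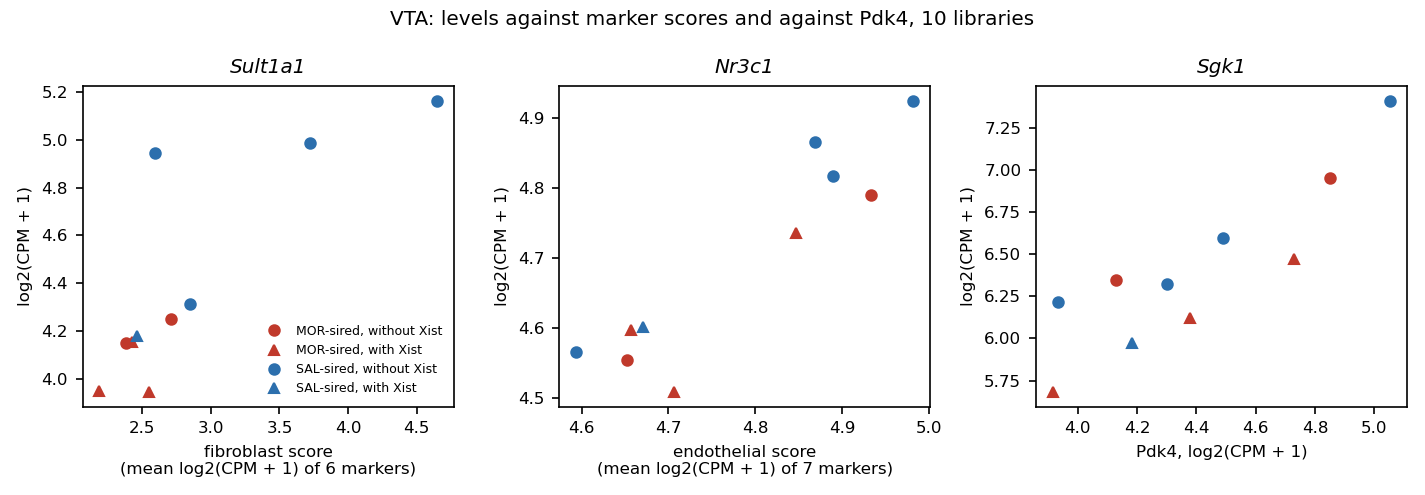
VTA levels on the log2(CPM + 1) scale in 10 libraries (MOR-sired red, SAL-sired blue, triangles with Xist): Sult1a1 against the fibroblast score, Nr3c1 against the endothelial score and Sgk1 against Pdk4. Sult1a1 is high in 3 SAL-sired libraries of which 1 has a low fibroblast score, Nr3c1 climbs with the endothelial score (r = 0.92), and Sgk1 climbs with Pdk4 (r = 0.88).

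The genes whose levels ran most like those of Fkbp5 and Tsc22d3 across libraries were ranked by rho among 11738 genes in VTA and 11621 in NAC. For Fkbp5 they were Cdc5l, Fez2, Hnrnpm, Armcx1 and Golga4 in VTA (rho 0.98 to 0.95, 10 libraries), and Itfg2, Kif17, Tmem248, Zfp280d and Spry1 in NAC (rho 0.96 to 0.95, 14 libraries). For Tsc22d3 they were Micos10, Arl6ip6, Srsf7, Sucla2 and Thoc7 in VTA (rho 0.99 to 0.98), and Srarp, Per2, Man1c1, Gtf2h1 and Hs3st4 in NAC (rho 0.86 to 0.77). No gene was on the lists of both regions. The members of the set were not near the top. The nearest to Fkbp5 was Sult1a1 in VTA, at rank 518 with rho = 0.77, and Nr3c2 in NAC, at rank 885 with rho = 0.80. The nearest to Tsc22d3 was Sult1a1 in VTA, at rank 283 with rho = 0.87, and Sgk1 in NAC, at rank 188 with rho = 0.53. Libraries share depth and cell makeup along these rankings, so they are descriptions without a test.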

How the data were processed

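RNA sequencing of rat NAC and VTA punches was deposited as 1 table of expected counts per region. The submitters' processing notes name Trim Galore, kallisto and DESeq2 without versions. The deposited estimated counts are, going by the file names, transcript abundances that the authors scaled to each library's total, so a value is a level per transcript length and not a number of reads, and no counting interval was computed. The genome build, annotation and strand setting were not given in the sources used here. All 37403 identifiers matched a RefSeq symbol of GRCr8.

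Counts were rounded, filtered by filterByExpr, scaled by TMM and tested in each region with edgeR's quasi-likelihood test (intercept and sire group), two-sided, with Benjamini-Hochberg adjustment over all genes kept and a threshold of 0.05. The regions were compared in 1 contrast over 24 libraries. Single-library levels are plain CPM, and group means ± SD of the sire comparisons are TMM-scaled CPM. A cell type score is the mean log2(CPM + 1) of its markers, with a pseudocount of 1 CPM. Log2 fold changes are MOR-sired over SAL-sired. Correlations used 100000 permutations, adjusted over 45 pairs or 170 gene and marker relations per region. Depth, in units of 1000000 counts, was 23.6 to 43.5 in VTA and 21.9 to 41.3 in NAC, and the number of libraries limits precision. The edgeR and permutation steps were tested on simulated data. DESeq2 1.42.0, edgeR 4.0.16 and limma 3.58.1 ran in R 4.3.3, and correlations in Python 3.11.15.

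Genes named beyond the 10 were, in each pathway list and region, the 2 of smallest p and always Hsd11b1, Fkbp4, Per1, Klf9 and Ddit4, then pairs past the threshold by r and rho, all pairs among Fkbp5, Tsc22d3, Sgk1 and Zbtb16, and the 5 genes of highest rho with at least 5 CPM. One further list is not reported here. The members and lists were chosen with earlier results of these data known. Alternatives covered other scalings, filters, tests and covariates, a replicate block, leaving out the 4 libraries with Xist and leaving out each library. The covariate or removal of VTA library numbers 25 to 28, the TMM scale for marker scores and the pathway lists without the libraries with Xist, with the shares of other genes for marker scores, were added after seeing the data.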

Additional observations from a re-analysis of the deposited data

Results flagged for a closer look

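In MOR-sired NAC, 2 genes had 1 library set apart from the other 6 by more than the usual gap for a group of 7, and it was the same library, MOR-sired NAC 4. Fkbp5 was at 64.8 CPM there, and the next library of the group was at 45.1 CPM. Sgk1 was at 154 CPM there, and the next was at 71.6 CPM. That library also had the highest striatal neuron marker sum of all 24, 7009 CPM, and the lowest cortical glutamatergic marker sum in NAC, 1420 CPM; their part in these values was not tested. Without it the log2 fold change of MOR-sired over SAL-sired NAC was -0.19 for Fkbp5 and -0.05 for Sgk1, against -0.06 and 0.24 with it. Of 40 groups examined, chance sets apart about 1 in 20, and the 2 found here are no more than that share.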

How the results depend on the processing

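None of the 10 genes was called under any alternative in NAC (smallest adjusted p 0.170), VTA (0.205) or the comparison of regions (0.441). Direction held in 203 of 220 values in NAC, 181 of 200 in VTA and 267 of 290 between regions. Over all genes edgeR called 0; DESeq2 called 73 in NAC, 115 in VTA and 182 between regions, limma-voom 52 in NAC, and edgeR 7 between regions without the libraries with Xist. The log2 fold change changed sign, in NAC, with total counts for Sult1a1 (0.0089), with a library number covariate for Hif3a (0.0017) and Pdk4 (-0.012), and with the striatal score for Nr3c2 (0.0099), Fkbp5 (0.065) and Sult1a1 (0.0040). In VTA it did so with total counts for Pdk4 (-0.00024), with the dopamine neuron score for Sgk1 (0.027) and Zbtb16 (0.017), without the libraries with Xist for Nr3c1 (0.031), Sgk1 (0.11) and Zbtb16 (0.050), and with a covariate for them for Nr3c1 (0.029), Sgk1 (0.14) and Zbtb16 (0.068). Between regions the difference of log2 fold changes, VTA minus NAC, changed sign with total counts for Nr3c1 (-0.048), Pdk4 (-0.11) and Cdkn1a (-0.066). It also did so for Nr3c2 (0.0040) without the libraries with Xist. Total counts shifted the median of this difference over all genes by -0.11. The causes were not tested. Leaving out each library in turn gave, in NAC, -0.050 to 0.058 for Sult1a1, -0.093 to 0.046 for Hif3a, -0.054 (without MOR-sired NAC 4) to 0.43 for Sgk1, -0.065 (without MOR-sired NAC 4) to 0.23 for Pdk4 and -0.19 to 0.0040 for Fkbp5. In VTA it gave -0.018 to 0.29 for Pdk4, -0.083 to 0.0066 for Nr3c1, -0.29 to 0.17 for Sgk1, -0.094 to 0.045 for Zbtb16 and -0.28 to 0.070 for Hif3a. Between regions it gave -0.12 to 0.21 for Pdk4, -0.044 to 0.12 for Cdkn1a, -0.088 to 0.044 for Nr3c2, -0.00077 to 0.28 for Zbtb16 and -0.24 to 0.11 for Hif3a.

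Pairs passing by r and rho numbered 3 in NAC and 2 in VTA. In NAC there were 0 after removal of the striatal score and 1 to 5 as each library was left out, with 1 without MOR-sired NAC 1 or 4 or SAL-sired NAC 3 or 7, and 5 without MOR-sired NAC 5. In VTA there were 0 with TMM scaling, 0 without the libraries with Xist, 0 without library numbers 25 to 28, 5 after removal of sire group means and 1 to 5 as each library was left out, with 1 without SAL-sired VTA 2 or 3, 4 without MOR-sired VTA 3, and 5 without MOR-sired VTA 4 or SAL-sired VTA 4. As each library was left out, r ran from -0.50 to 0.11 for Tsc22d3 and Zbtb16 in NAC and from -0.011 to 0.52 for Fkbp5 and Sgk1 in VTA. The replicate block called 0 genes in both regions (923 in NAC and 859 in VTA at an unadjusted p under 0.05). Same-numbered libraries correlated between -0.26 and 0.13, and only for VTA number 2 (0.12) was the own number the highest. Cell makeup varies between libraries, so these values cannot show whether same-numbered libraries share a litter or cohort. With 5 to 7 libraries a group, folds past 1 by the unadjusted 95% intervals, as for Sult1a1 and Fkbp5 in VTA, were still not called after adjustment over all genes.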
